A study of Macaca mulatta with 28 samples.

Results

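Oligodendrocytes wrap axons in myelin, and the genes described here are those that build, maintain and control that membrane, together with genes that mark the earlier stages of the same lineage. Members were chosen by name as 33 gene symbols, of which 30 are among the 16885 entries of the count table that carry a symbol. Each entry pairs 1 Ensembl transcript with 1 symbol, and a gene is described here by the count of its listed transcript. MAG, OLIG1 and NKX2-2 were not analysed here. The 30 listed members were the 24 mature genes without MAG (23), the lineage transcription factors SOX10 and OLIG2, the newly formed oligodendrocyte genes BCAS1 and ENPP6, and the precursor genes PDGFRA, CSPG4 and VCAN.

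RNA came from bulk tissue punches of the VTA (ventral tegmental area), from which midbrain dopamine neurons project to the striatum and cortex, in 28 male wild-type rhesus macaques with 1 library per animal. The 17 drinkers had voluntarily consumed ethanol over long periods of open access and were sampled at the end of the last abstinence of 30 days. The 11 controls were either yoked to a drinker for calories or kept as housing controls, and the labels do not tell these apart. Drinkers were labelled low (1), binge (2), heavy (5) or very heavy (9). Cohort 1 held 8 drinkers (4 heavy, 3 very heavy and 1 low) and 8 controls, and cohort 2 held 9 drinkers (6 very heavy, 2 binge and 1 heavy) and 3 controls. Animals are named by category and a number that carries no order.

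In the adult brain, precursor cells divide, leave the cell cycle and pass through a brief newly formed stage before they ensheathe axons. PDGFRA, the receptor that keeps precursors dividing, and the proteoglycans CSPG4 and VCAN mark the first step. SOX10 and OLIG2 are transcription factors used throughout the lineage, and MYRF is the factor that switches on the myelin programme in cells that have left the cycle. Compact myelin is then built from proteins such as MBP and from galactolipids made by UGT8 and FA2H.

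Libraries held 12303914 to 27338669 counts, and the 30 listed members together took 0.701% to 1.38% of them, with a median of 0.985%. Transcripts encoded by the mitochondrial genome took 36.4% to 60.6%. Of the oligodendrocyte transcripts, MBP had 43275 to 105015 counts and SOX10 had 5428 to 13136. CLDN11, also a myelin gene, was at 0 in 15 of 28 animals. Of 8 dopamine neuron markers, TH, SLC6A3, SLC18A2 and DDC had counts in every animal. TH and SLC6A3 had medians of 2179.5 and 1688.5 counts and reached 18843 and 18395. ALDH1A1 was at 0 in 7 animals, NR4A2 in 6, PITX3 in 2 and EN1 in 1. Of Schwann cell markers, NCMAP was at 0 in 22 of 28 animals and reached 6 counts at most, while PRX, CDH19 and PMP2 had counts in every animal, with medians of 259.5, 928 and 4444. Because tissue was sequenced in bulk, fewer oligodendrocytes and less RNA per oligodendrocyte cannot be told apart.

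Values below are CPM, each count scaled to a common library total, with TMM factors. They are compared between animals for 1 transcript, or 1 summed list of markers, at a time, never between genes. Of the 30 listed members, 24 had a count in every animal. The counts of CLDN11, which forms the tight junctions of myelin, were 0 in 15 animals and at most 85. SIRT2, a deacetylase of myelin-forming cells, was at 0 in 14 animals and reached 198 counts. ASPA, which breaks down N-acetylaspartate, was at 0 in 12 and reached 229, and TSPAN2, a tetraspanin, was at 0 in 5 and reached 23. VCAN was at 0 in 24 animals, and its other 4 animals, control 8, heavy 1, heavy 5 and very heavy 7, held 2.83, 3.81, 3.99 and 3.09 CPM. PDGFRA was at 0 in very heavy 1 alone and had 267 to 882 counts in the other 27 animals. Where ASPA was not at 0 it had at least 30 counts, and VCAN at least 57, so these steps are larger than counting error. A 0 is thus given only as what is listed for that transcript, not as a limit on the gene, and no fold change of these 6 transcripts is quoted. They do enter counts and medians over 30 members, beside which the 24 others are given.

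The transcripts with a count in every animal differed in how much they varied. The coefficient of variation over 28 animals was 12.3% for ENPP2, which makes lysophosphatidic acid, 13.2% for the receptor GPR37, 14.4% for OLIG2 and 15.9% for SOX10. It was 24.5% for MBP, whose level ran from 1892 to 4603 CPM, a 2.43-fold range. At the other end it was 43.5% for MYRF, 43.9% for MOG, 56.2% for TF, the iron carrier transferrin, and 59.2% for ENPP6, a choline phosphodiesterase. MOG, a protein of the outer myelin surface, ran from 5.44 CPM in heavy 3 to 71.7 CPM in a control, a 13.2-fold range. The lineage factors were thus among the steadier members, and MYRF and MOG were among the more variable ones.

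GJB1, UGT8 and FA2H, the members with the highest correlations with MBP over animals, are shown by the 250 bases upstream of their annotated start (RefSeq annotation of Mmul_10, the build of the count table), because members that move together were compared for shared short motifs. The start is the most upstream one among curated RefSeq mRNAs of the gene, or among predicted ones where it has none. For GJB1, which has 3 mRNAs, it lies inside the annotated span of the gene, which begins at chrX:68203013. Capitals mark every match, on either strand, to the SOX motif ACAAAG or the GC box GGGCGG. Each window is written 5′ to 3′ on the strand of its gene and ends at the base before the start.
GJB1 (chrX:68212881-68213130, plus strand): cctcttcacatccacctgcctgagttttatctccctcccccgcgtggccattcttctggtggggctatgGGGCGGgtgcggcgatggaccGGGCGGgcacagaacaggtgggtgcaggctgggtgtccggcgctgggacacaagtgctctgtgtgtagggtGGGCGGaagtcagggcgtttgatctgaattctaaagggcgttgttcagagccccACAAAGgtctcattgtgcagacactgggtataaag
UGT8 (chr5:112915922-112916171, plus strand): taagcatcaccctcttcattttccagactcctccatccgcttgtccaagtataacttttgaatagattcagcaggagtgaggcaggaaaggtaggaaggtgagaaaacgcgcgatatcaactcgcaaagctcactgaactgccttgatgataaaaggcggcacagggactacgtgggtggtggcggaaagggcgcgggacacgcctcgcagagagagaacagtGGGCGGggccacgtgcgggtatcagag
FA2H (chr20:61739584-61739833, minus strand): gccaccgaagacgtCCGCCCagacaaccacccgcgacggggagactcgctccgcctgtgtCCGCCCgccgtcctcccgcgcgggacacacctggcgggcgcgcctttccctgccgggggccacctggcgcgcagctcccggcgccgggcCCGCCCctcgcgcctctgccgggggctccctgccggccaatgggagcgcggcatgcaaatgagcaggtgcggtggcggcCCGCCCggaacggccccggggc

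The GJB1 window held 1 SOX motif and 3 GC boxes, that of UGT8 1 GC box and that of FA2H 4 GC boxes. Of 20755 upstream windows of the same length in the annotation, 12.4% held the SOX motif and 44.9% the GC box. Among the 29 listed members with a window, 5 held the SOX motif (CSPG4, ENPP6, GJB1, OPALIN and PLEKHB1) and 15 the GC box. The E-box CAGCTG was in 1 member window (CSPG4) against 12% of all windows, and the MYRF motif CTGGCAC was in 0 member windows against 4.17%. A match describes these letters only. The windows of GPR37, PLLP and MAL, which also moved together, held 1, 0 and 0 GC boxes and no SOX motif. The starts of GJB1, FA2H and GPR37 come from curated mRNAs, and those of UGT8, PLLP and MAL from predicted ones.

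Members varied together more than transcripts at large. Over the 435 pairs of the 30 listed members, the median Pearson r of log2 CPM over 28 animals was 0.157, and 70.8% of pairs were positive. Over all pairs of the 13769 transcripts tested, the median was 0.00834 and 51.4% were positive. Among the 276 pairs of the 24 members with a count in every animal, the median was 0.268, and 18.1% of pairs exceeded 0.5, where 1.93% did among the 8329 transcripts with a count in every animal. Within cohort 1 the median over 435 pairs was 0.160 and within cohort 2 it was 0.268, so the pairs were positive on balance in each. Leaving out any 1 animal gave 0.149 to 0.192. These are descriptions over animals that share library depth and dissection, with no test.

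**Figure D1:**
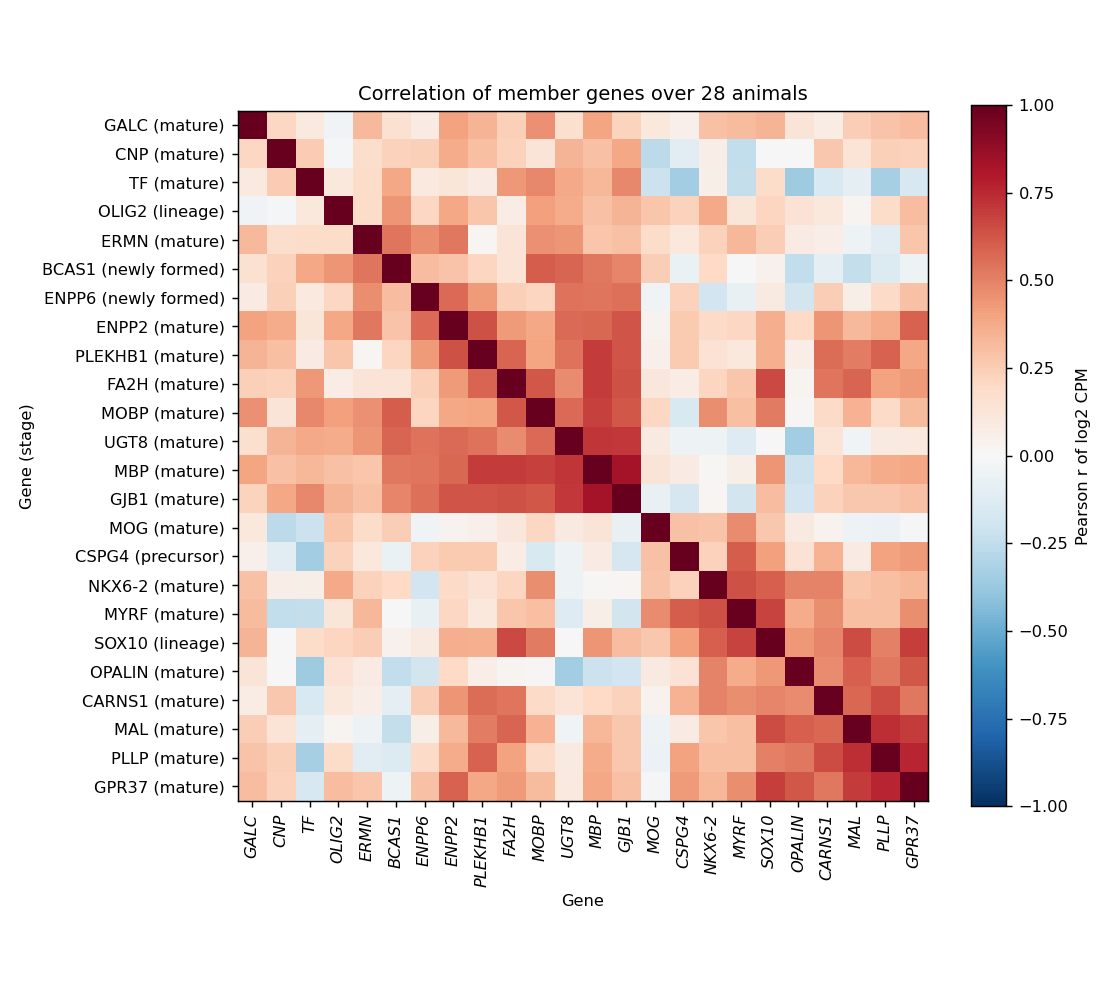
Pearson r of log2 CPM over 28 animals for every pair of the 24 members with a count in every animal, ordered by average linkage. Red squares are positive and blue negative, one block gathers MBP, GJB1, UGT8, MOBP, FA2H and PLEKHB1 and another GPR37, PLLP, MAL, CARNS1 and SOX10, while TF and OPALIN stand at r = -0.35.

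One block of the matrix held structural and lipid genes of myelin. MBP, which packs the cytoplasmic faces of the myelin membrane, had its highest correlation with GJB1, the gap junction protein connexin 32, at r = 0.83. GJB1 and UGT8, the enzyme that makes galactosylceramide, correlated at 0.71, and MBP and UGT8 also at 0.71. A second block held PLLP and MAL, both small proteolipids of the myelin membrane, with GPR37 and CARNS1, a carnosine synthase. PLLP and GPR37 correlated at 0.76, PLLP and MAL at 0.74, and MAL and GPR37 at 0.70. OPALIN, a myelin glycoprotein, went with the second block, at 0.62 with GPR37, and had r = -0.35 with UGT8 and -0.22 with MBP. The blocks were read from these same values and are a description.

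The strongest pairs were positive in each cohort. MBP and GJB1 had r = 0.76 in cohort 1 and 0.90 in cohort 2, and PLLP and GPR37 had 0.75 and 0.77. BCAS1, a marker of cells that have just begun to myelinate, was less even, since its r with MBP was 0.21 in cohort 1 and 0.83 in cohort 2. Its r with MOBP, a myelin structural protein, was 0.61 over 28 animals, and its r with MAL was -0.24, made of -0.61 in cohort 1 and 0.30 in cohort 2. OPALIN and MBP likewise had -0.20 in cohort 1 and 0.08 in cohort 2. SIRT2 had r = -0.57 with SOX10 but -0.10 with OLIG2, and rests on 14 animals with a count.

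The correlation of 3 anchor genes with every other transcript tested was then put to a permutation test (100000 permutations of the animals, two-sided, Benjamini-Hochberg over the 13768 transcripts of each anchor). With MBP, 0.879% of transcripts passed with a positive r, and of the 29 other listed members 5 did. These were GJB1 (r = 0.83, rho = 0.84, adjusted permutation p = 0.0055), UGT8 (0.71, 0.72, p = 0.012), FA2H (0.70, 0.71, p = 0.011), PLEKHB1 (0.70, 0.66, p = 0.012) and MOBP (0.68, 0.67, p = 0.018). GJB1 ranked 3 among all transcripts by its r with MBP. Without the 2 animals farthest from the median of MBP the 5 values of r lay between 0.58 and 0.80.

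With SOX10, 0.944% of transcripts passed with a positive r, and 4 members did. MYRF had r = 0.68 and rho = 0.62 (adjusted permutation p = 0.016), GPR37 0.69 and 0.65 (p = 0.018), FA2H 0.66 and 0.67 (p = 0.024) and MAL 0.65 and 0.59 (p = 0.036). Without the 2 animals farthest from the median of SOX10 their r lay between 0.57 and 0.66. FA2H, which hydroxylates the fatty acids of myelin galactolipids, passed with both MBP and SOX10. With CSPG4, 0.966% of transcripts passed with a positive r and 0 members did (permutation test with Benjamini-Hochberg adjustment). The members with the highest r were MYRF (r = 0.61, rho = 0.50, p = 0.00067, adjusted p = 0.050) and PDGFRA (0.53, 0.37, p = 0.0070, adjusted p = 0.12), and both values fell without the 2 farthest animals, to 0.38 and 0.091.

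The calls with MBP and with SOX10 moved in opposite ways with a correction for base composition. Taking out of each library the smooth dependence of its counts on the GC content of transcripts raised the members that passed with MBP from 5 to 8, where 1.25% of 13318 transcripts passed, and added ENPP2, ERMN and BCAS1. With SOX10 it left 0 members, where 0% of all transcripts passed, with r = 0.67 for GPR37, 0.63 for FA2H, 0.57 for MAL and 0.46 for MYRF. With CSPG4 it left 0 members, where 0.21% of transcripts passed. The median r over member pairs was 0.169 after the correction.

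Mature and precursor scores had a correlation near 0 across animals. Each stage was summarised by a score, the mean over its members of the log2 CPM expressed in SDs from the mean over 28 animals (a z-score). The mature score (23 members) and the precursor score (PDGFRA, CSPG4 and VCAN) had r = 0.085 and rho = 0.088, with a jackknife SE of 0.17 for r. It was 0.031 without control 8 and 0.213 without heavy 5, the lowest and highest values with 1 animal left out, and 0.24 without the 2 animals farthest from the median mature score. In cohort 1 r was 0.24 and in cohort 2 it was -0.17, where rho was 0.15. Without VCAN, which had counts in 4 animals, r was 0.18 over 28 animals, 0.26 in cohort 1 and 0.22 in cohort 2. After GC correction r was -0.083 with VCAN and -0.026 without it. The mature score followed the lineage score of SOX10 and OLIG2 (r = 0.64, rho = 0.61) and the newly formed score of BCAS1 and ENPP6 (r = 0.47, rho = 0.56), the latter at 0.29 in cohort 1 and 0.78 in cohort 2. No test was made of a score over chosen members.

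**Figure D2:**
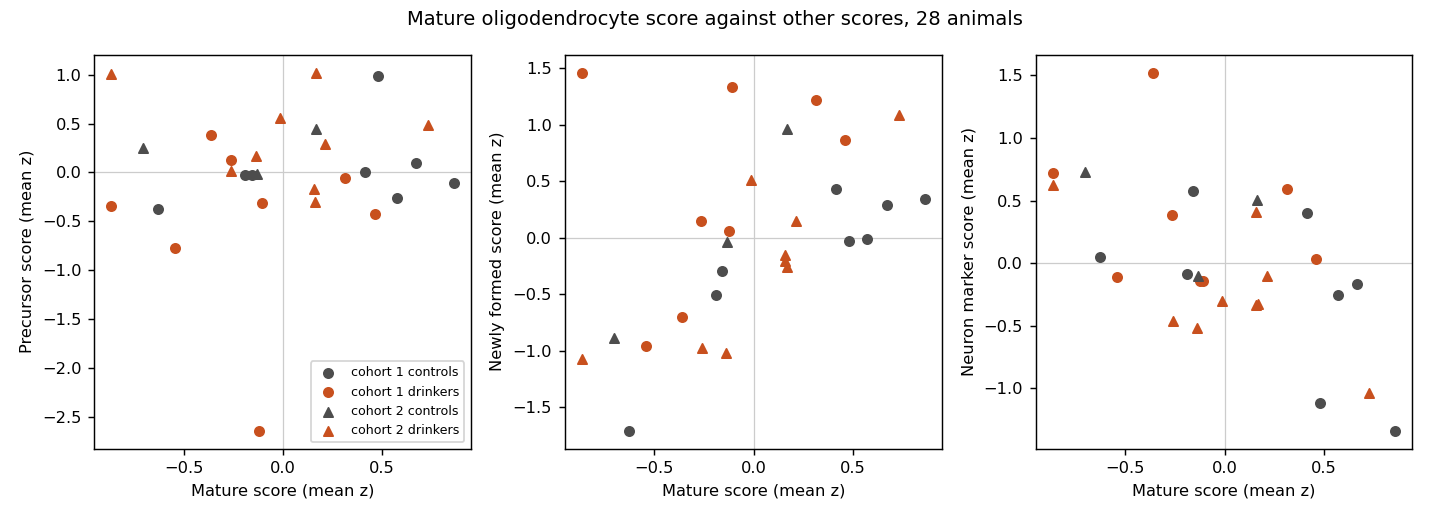
Scores of 28 animals (mean z-score of log2 CPM) for mature members on the x axes against precursor members, newly formed members and neuron markers; circles are cohort 1, triangles cohort 2, grey controls and orange drinkers. The precursor panel shows no slope (r = 0.085) and 1 animal far below the rest, very heavy 1 at -2.65, and the neuron panel slopes down (r = -0.57).

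The animals at the ends differed by stage. The lowest mature scores were -0.865 in heavy 5 and -0.864 in very heavy 2, and the highest were 0.859 in control 5 and 0.729 in very heavy 6. Very heavy 2 combined that low mature score with the lowest lineage score (-1.51) and the highest newly formed score (1.46) of the 28 animals. Heavy 5 combined its low mature score with a newly formed score of -1.08. Its precursor score was 1.01, and 0.251 without VCAN. Very heavy 6 had the highest lineage score (1.70), with a newly formed score of 1.08. In very heavy 1 the precursor score was -2.65, because PDGFRA was at 0 CPM and CSPG4 at 17.0 CPM, the lowest of all animals, while its mature score was -0.122.

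Pairs of single genes were compared by stage as well. Among members with a count in every animal the median r was 0.287 over the 171 pairs of mature genes, 0.307 over the 38 pairs of a mature and a lineage gene, 0.225 over the 38 pairs of a mature and a newly formed gene, and 0.104 over the 19 pairs of a mature gene with CSPG4, the precursor gene that had counts throughout. The last was 0.25 in cohort 1, 0.25 in cohort 2 and -0.064 after GC correction. CSPG4 and TF had r = -0.34 over 28 animals, with 0.19 in cohort 1 and -0.32 in cohort 2. CSPG4 and MOBP had -0.15 over 28 animals but 0.26 and 0.13 within the cohorts.

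Other oligodendrocyte genes and markers of other cells were set beside the mature score. A list of 28 further oligodendrocyte lineage genes that are not members, of which 27 were tested, gave a score that followed the mature score (r = 0.86, rho = 0.88). The neuron score (8 of 9 listed markers, among them SNAP25, NEFL and NEFM) ran against it (r = -0.57, rho = -0.55), in cohort 1 (-0.55) and in cohort 2 (-0.64). This r was -0.46 without the 2 animals farthest from the median mature score and -0.40 after GC correction. The dopamine neuron score had r = -0.16, cholesterol synthesis 0.069, astrocytes -0.043, microglia 0.072, endothelial cells 0.18 and Schwann cells 0.36 (0.17 in cohort 1 and 0.81 in cohort 2). The 4 of 6 Schwann cell markers tested did not include NCMAP. The single blood marker tested had r = 0.012. How far the neuron and oligodendrocyte content of the punches moved these scores was not tested.

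Between drinkers and controls no member passed the test. edgeR's quasi-likelihood test with Benjamini-Hochberg adjustment over 13769 transcripts called 0 members where 0% of all transcripts were called, and 0 of 30 members had an unadjusted p under 0.05 where 4.57% of all did. Of the 30 members, 20 were lower in drinkers by value, with a median log2 fold change of -0.09 against 0.00 over all transcripts. Of the 24 with a count in every animal 17 were lower, with a median of -0.10. After GC correction 13 of these 24 were lower, with a median of -0.03 beside 0.03 over all transcripts. The lowest p belonged to SOX10 (log2 fold change -0.18 ± 0.09 SE, p = 0.0502), FA2H (-0.21 ± 0.11, p = 0.0603) and MYRF (-0.43 ± 0.22, p = 0.0657), each with an adjusted p of 1.00 in edgeR's test. With the GC correction these 3 log2 fold changes were -0.05 ± 0.07, -0.11 ± 0.10 and -0.35 ± 0.22. SOX10 ran from 361.7 to 592 CPM with a median of 489 in 11 controls and from 282 to 519.8 with a median of 429 in 17 drinkers, so the groups overlapped widely.

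The remaining named members showed the same overlap. MBP had a median of 3328 CPM (2046 to 4603) in controls and 2698 CPM (1892 to 3938) in drinkers. MOG had 38.6 (11.4 to 71.7) and 33.6 (5.44 to 55.8), and OPALIN 169 (139 to 236) and 154 (78.6 to 235). OLIG2 had medians of 164 and 151 CPM, BCAS1 188 and 205, and PDGFRA 22.2 and 23.8. The newly formed genes BCAS1 and ENPP6 stood at log2 fold changes of 0.15 ± 0.14 and 0.18 ± 0.31 and the mature genes at a median of -0.11. Since cohort 2 has few controls, the same fit was made with cohort as a term. Then 4 members had an unadjusted p under 0.05, where 7.06% of all transcripts in that fit had one. These were TF (0.61, p = 0.0119), PLLP (-0.27, p = 0.0168), MYRF (-0.58, p = 0.0194) and CSPG4 (-0.23, p = 0.0345), and the lowest adjusted p among members was 0.51.

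**Figure D3:**
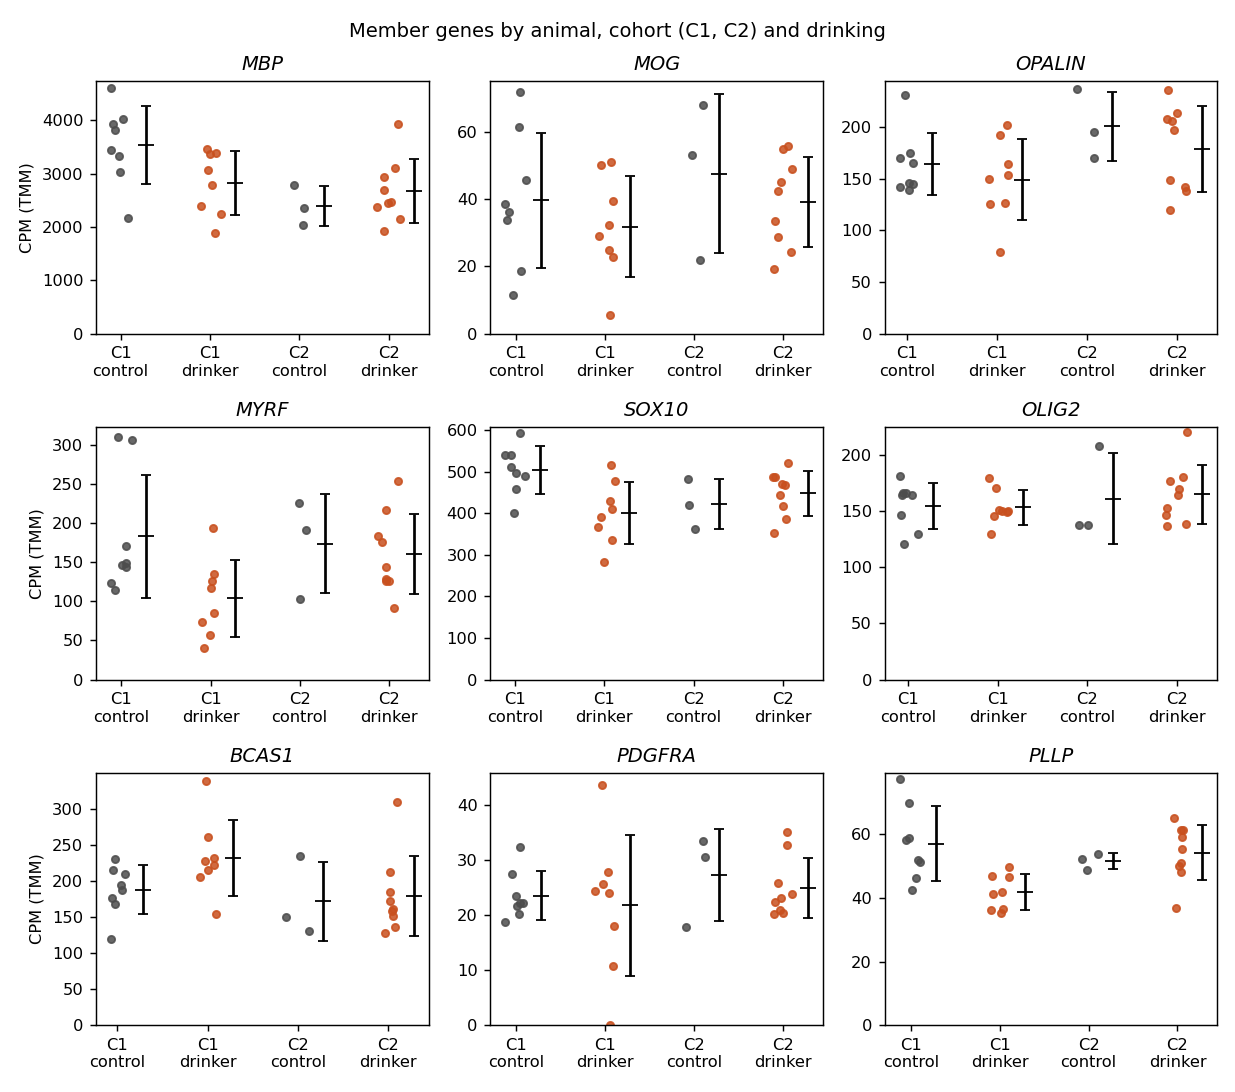
CPM of 9 members in every animal, by cohort (C1, C2) and drinking. Each point is 1 animal and the black marks give the mean and SD; the groups overlap for every gene, and in cohort 1 all 8 drinkers lie below the controls' median for MBP and PLLP.

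The drinkers of cohort 1 held less of several myelin and lineage transcripts by value, and none of these differences passed the adjusted test. In cohort 1 0.959% of all transcripts were called after adjustment and 0 of 30 members were. At an unadjusted p under 0.05 stood 9 members, 8 lower and 1 higher, where 14.7% of all transcripts stood. Of the 30, 21 were lower, with a median log2 fold change of -0.19 against -0.01 over all transcripts. Of the 24 with a count in every animal 18 were lower, 8 of them at an unadjusted p under 0.05, with a median of -0.21. The lowest p was that of PLLP (-0.45 ± 0.12, p = 0.000704, adjusted p = 0.0602 in edgeR's test). SOX10 had -0.33 ± 0.10 (adjusted p = 0.12), MYRF -0.82 ± 0.28 (0.14), FA2H -0.34 ± 0.12 (0.14), MAL -0.38 ± 0.14 (0.16), GPR37 -0.24 ± 0.09 (0.18), CSPG4 -0.33 ± 0.13 (0.20) and MBP -0.33 ± 0.15 (0.31). The 1 higher member was SIRT2, which had counts in 5 of 8 drinkers and 2 of 8 controls.

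PLLP ran from 42.5 to 77.3 CPM (median 55.1) in the 8 controls of cohort 1 and from 35.4 to 49.8 CPM (median 41.6) in the 8 drinkers. All 8 drinkers lay below the controls' median, and 5 lay below the lowest control. MYRF ran from 115 to 309 CPM (median 147) in controls and from 40.8 to 194 CPM (median 101) in drinkers, with 4 drinkers below the lowest control. SOX10 ran from 399.9 to 592 CPM (median 504) and from 282 to 516 CPM (median 401), again with 4 below. MBP ran from 2168 to 4603 CPM (median 3628) and from 1892 to 3459 CPM (median 2926), and all 8 drinkers were below the controls' median. MOG had medians of 37.4 CPM in controls and 30.5 CPM in drinkers, OLIG2 164 and 150, and PDGFRA 22.2 and 24.2. By stage, the mature members had a median log2 fold change of -0.24. ENPP6 stood at 0.58 ± 0.39 and BCAS1 at 0.31 ± 0.17, neither at an unadjusted p under 0.05. ENPP6 was at 18.1 and 19.3 CPM in heavy 3 and heavy 4 and at most 9.0 CPM in the other drinkers of cohort 1. In cohort 2 its log2 fold change was -0.44 ± 0.51.

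A list of other oligodendrocyte genes gave like values. Of its 27 tested genes, 8 were lower at an unadjusted p under 0.05 and 0 higher, where 14.7% of all transcripts stood at that limit in either direction, with a median log2 fold change of -0.19. Only CLDND1, a claudin-like membrane protein, passed after adjustment (-0.47 ± 0.11, adjusted p = 0.0470 in edgeR's test). In these animals the neuron markers stood at a median log2 fold change of 0.58, with 3 of 8 higher at an unadjusted p under 0.05. Their summed level was 2528 to 9364 CPM (median 4110) in controls and 3820 to 18322 CPM (median 7934) in drinkers. NEFM, NEFL and SNAP25 led this sum, with median counts of 41125.5, 32835 and 16915 over all animals, where the next marker, SLC17A6, had 2696. The part of this neuron signal in the members' values was not tested.

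Base composition also moved with drinking in cohort 1. The trend of a library's counts on transcript GC content, given as the log2 difference between GC-rich and GC-poor transcripts, was -0.010 to 0.432 in the 8 controls and -0.239 to 0.018 in the 8 drinkers of cohort 1, and -0.103 to 0.206 over the 12 animals of cohort 2. Among the members lower at an unadjusted p under 0.05, transcript GC content was 63.4% for SOX10 and 63.3% for CSPG4. It was 60.5% for PLLP, 60.2% for MYRF, 59.2% for FA2H, 58.5% for MAL, 56.9% for MBP and 53.2% for GPR37. NKX6-2 (71.0%) and CARNS1 (64.3%) were more GC-rich, at -0.19 ± 0.21 and -0.38 ± 0.23, and were not among these. The cause of the trend and of the lower values was not tested. Over the 24 members with a count in every animal, GC content and log2 fold change in cohort 1 had r = -0.50, a description across genes, which are not independent. With the trend taken out this was -0.18, and the median over these 24 moved from -0.21 to -0.08, beside a move from -0.01 to 0.07 over all transcripts. PLLP then stood at -0.23 ± 0.11, SOX10 at -0.08 ± 0.09, CSPG4 at -0.08 ± 0.12 and MYRF at -0.62 ± 0.28 (adjusted p = 0.36 in edgeR's test). At an unadjusted p under 0.05 then stood 3 members, MYRF lower and TF (0.61 ± 0.29) and SIRT2 higher, where 12.3% of all transcripts did.

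**Figure D4:**
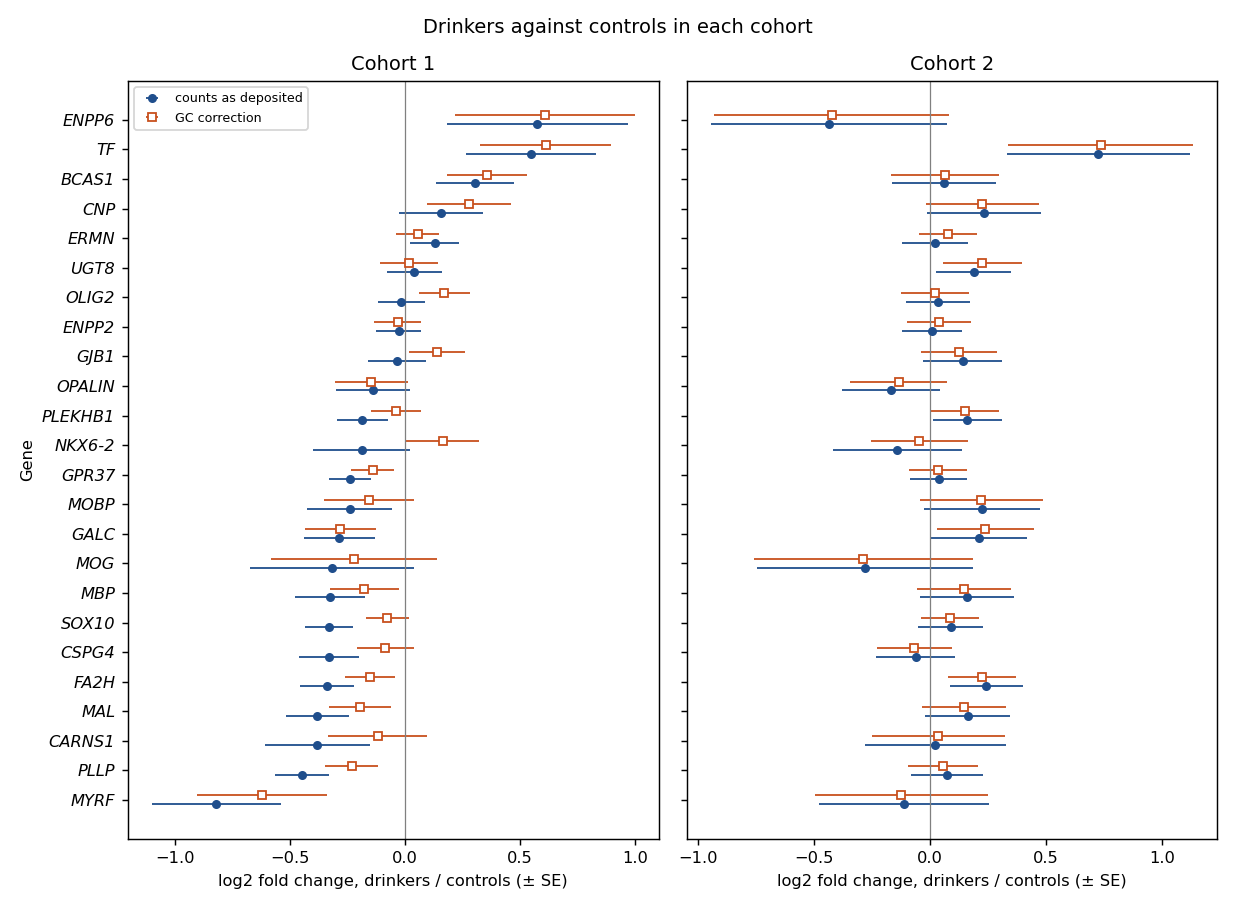
Log2 fold change (± SE) of drinkers against controls for the 24 members with a count in every animal, in cohort 1 (8 against 8) and cohort 2 (9 against 3); filled blue circles use the counts as deposited, open orange squares the GC correction. In cohort 1 SOX10 moves from -0.33 to -0.08 with the correction and PLLP from -0.45 to -0.23, while OPALIN stays near -0.14 and NKX6-2 crosses 0, and in cohort 2 most members lie on or above 0.

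In cohort 2 no member passed. There 0% of all transcripts were called after adjustment, 2% had an unadjusted p under 0.05, and 0 of 30 members had one. Here 21 members were higher in drinkers by value, with a median log2 fold change of 0.07. Of the 24 with a count in every animal 18 were higher, with a median of 0.07. The lowest p were those of TF (0.73 ± 0.40, p = 0.0773), VCAN, which had counts in 2 of 9 drinkers and 0 of 3 controls and has no usable fold, and FA2H (0.24 ± 0.16, p = 0.136), each with an adjusted p of 1 in edgeR's test. FA2H was at 247, 246 and 234 CPM in the 3 controls and 210 to 366 CPM (median 287) in the 9 drinkers. The summed neuron markers, led by NEFM, NEFL and SNAP25, were 3967 to 9171 CPM (median 7908) in the 3 controls. In the 9 drinkers they were 2908 to 5188 CPM (median 4088), and their part was not tested. MOG (-0.28 ± 0.47), OPALIN (-0.17 ± 0.21) and MYRF (-0.11 ± 0.37) were lower in drinkers by value, and OLIG2 (0.04 ± 0.14) and BCAS1 (0.06 ± 0.23) were near 0. MBP stood at 0.16 ± 0.20, and SOX10 at 0.09 ± 0.14, where its SE in cohort 1 was 0.10.

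The difference between the cohorts in their drinker-control contrast was tested in 1 fit. 0.0145% of all transcripts were called and 0 members. At an unadjusted p under 0.05 stood 4 members, FA2H (0.58 ± 0.20, p = 0.00668, adjusted p = 0.32 in edgeR's test), PLLP (0.52 ± 0.20, p = 0.0135), SOX10 (0.42 ± 0.18, p = 0.0250) and MAL (0.54 ± 0.23, p = 0.0262), where 9.62% of all transcripts did. All 4 were relatively higher in the drinkers of cohort 2. After GC correction 1 member, FA2H, stood under that limit, where 7.84% of all transcripts did. Without control 9 it was 7 members (8.21% of all transcripts) and without control 10 it was 2 (6.43%). No member was thus shown to differ between cohorts in its response.

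With the counts as deposited, TF and CSPG4 had the lowest p of all members between the cohorts. With drinking as a term, TF was lower in cohort 2 at a log2 fold change of -1.12 ± 0.23 (adjusted p = 0.0600 in edgeR's test) and CSPG4 higher at 0.45 ± 0.10 (adjusted p = 0.105), so neither passed 0.05. After GC correction CSPG4 stood at 0.32 ± 0.09 (adjusted p = 0.103 in edgeR's test) and GJB1 at -0.32 ± 0.09 (0.101). TF ran from 16.7 to 94.3 CPM (median 43.1) in the 16 animals of cohort 1 and from 10.9 to 50.6 CPM (median 18.1) in the 12 of cohort 2. CSPG4 ran from 17.0 to 36.7 CPM (median 30.1) and from 27.7 to 49.2 CPM (median 37.3). For TF, 11 of the 12 animals of cohort 2 lay below the median of cohort 1, and for CSPG4 1 of 12 did. In cohorts 1 and 2 the medians were 35.0 and 43.7 CPM for MOG, 130 and 160 for MYRF, 467 and 455 for SOX10, 151 and 159 for OLIG2, and 22.9 and 23.4 for PDGFRA. Cohort is the study's own division of the animals, and what else differed between the cohorts cannot be told apart from it.

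Between cohorts 6 members had an unadjusted p under 0.05, where 9.8% of all transcripts did, and 0 of 30 were called, where 0.0436% of all were. Besides TF and CSPG4 these were MOBP (-0.42 ± 0.15, adjusted p = 0.29), GJB1 (-0.24 ± 0.10, 0.40) and BCAS1 (-0.29 ± 0.13, 0.46), all lower in cohort 2, and OPALIN (0.27 ± 0.12, 0.46), which was higher. TF was called with DESeq2 (adjusted p = 0.00032), with limma-voom (0.0287) and after GC correction (0.0476), and CSPG4 with DESeq2 (0.0179). After GC correction 8 members had an unadjusted p under 0.05, 7 lower and 1 higher, where 13.4% of all transcripts had one. MBP, UGT8 and FA2H joined them at -0.32 ± 0.12, -0.26 ± 0.10 and -0.31 ± 0.09, and OPALIN at 0.20 ± 0.12 (p = 0.117) no longer did. Of the 24 members with a count in every animal, 10 were lower in cohort 2 before the correction and 17 after it, while the median over all transcripts moved from 0.02 to -0.07. Without the drinking term TF stood at -0.97 (adjusted p = 0.17). Of the 6 astrocyte markers tested, 4 were higher in cohort 2 at an unadjusted p under 0.05, with a median log2 fold change of 0.35. Their part in the cohort values was not tested.

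**Figure D5:**
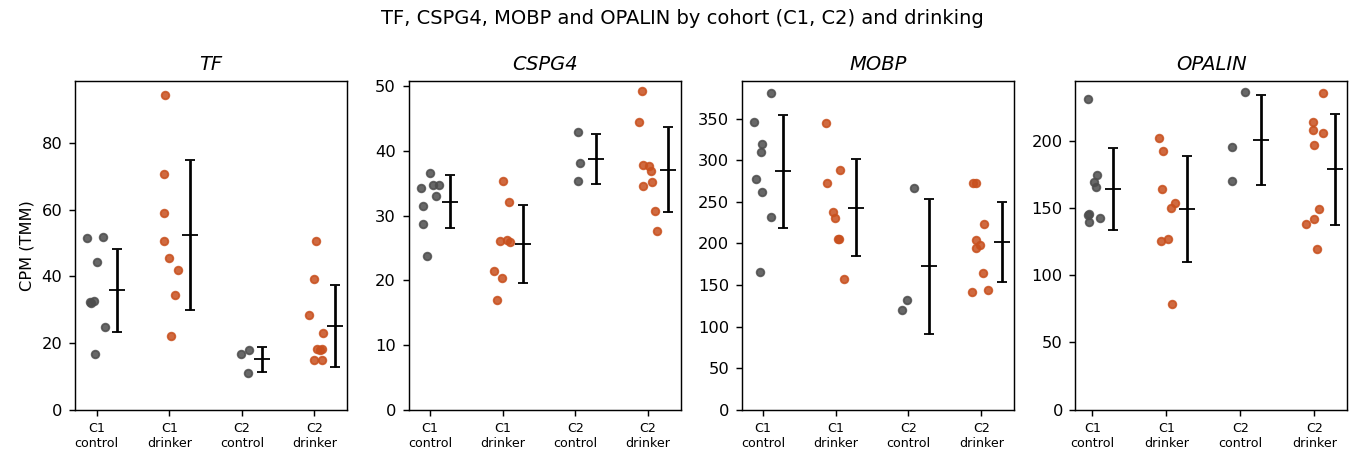
CPM of TF, CSPG4, MOBP and OPALIN in every animal by cohort (C1, C2) and drinking, with the mean and SD as black marks. TF has a median of 43.1 CPM in cohort 1 and 18.1 CPM in cohort 2, and CSPG4 has medians of 30.1 and 37.3 CPM.

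TF, which oligodendrocytes make, was higher in drinkers by value in each cohort. In cohort 2 its 3 controls held 17.8, 16.6 and 10.9 CPM and the 9 drinkers 14.8 to 50.6 CPM (median 18.3). In cohort 1 the 8 controls held 16.7 to 51.8 CPM (median 32.4) and the 8 drinkers 22.2 to 94.3 CPM (median 48.0). The groups overlapped in both cohorts, and the log2 fold changes of 0.55 ± 0.28 and 0.73 ± 0.40 did not pass.

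Drinking categories were compared with cohort as a term, since heavy drinkers were mostly of cohort 1 and very heavy drinkers mostly of cohort 2. Very heavy drinkers against controls gave 0% of transcripts called and 6.49% at an unadjusted p under 0.05, with 3 of 30 members at that limit and 0 called. These were TF (0.79 ± 0.26, p = 0.00516), MYRF (-0.80 ± 0.32, p = 0.0205) and CSPG4 (-0.31 ± 0.13, p = 0.0282), with adjusted p of 0.56, 0.66 and 0.71 in edgeR's test. MYRF ran from 40.8 to 253 CPM (median 128) in the 9 very heavy drinkers, and its 3 lowest animals were those of cohort 1, very heavy 1, 2 and 3, at 40.8, 57.4 and 73.7 CPM.

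Heavy drinkers against the same controls gave 0% called and 7.28% at an unadjusted p under 0.05, with 3 of 30 members there. These were PLLP (-0.45 ± 0.14, p = 0.00314), TF (0.66 ± 0.27, p = 0.0221) and MAL (-0.39 ± 0.16, p = 0.0227), with adjusted p of 0.47, 0.62 and 0.62 in edgeR's test. PLLP was at 41.2, 35.4, 47.1, 42.0 and 36.9 CPM in heavy 1 to 5, and all 5 lay below the controls' median of 52.1 CPM. The values of both categories share the 11 controls. MBP stood at -0.29 ± 0.17 in heavy and -0.02 ± 0.16 in very heavy drinkers (-0.20 and 0.05 after GC correction). SOX10 stood at -0.14 ± 0.12 and -0.16 ± 0.12 (0.04 and -0.03 after GC correction). BCAS1 stood at 0.16 ± 0.17 and 0.29 ± 0.15. The correction also moved CSPG4 in very heavy drinkers to -0.16 ± 0.12.

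Very heavy against heavy drinkers gave no member that passed. Of all transcripts 0% were called and 6.27% had an unadjusted p under 0.05, while 0 of 30 members had one. The lowest p were those of PLLP (0.28 ± 0.15, p = 0.0833), PLEKHB1 (0.25 ± 0.14, p = 0.0884) and UGT8 (0.23 ± 0.13, p = 0.0987), each with an adjusted p above 0.85 in edgeR's test. MBP stood at 0.27 ± 0.19, MYRF at -0.38 ± 0.38, MOG at -0.16 ± 0.42, OPALIN at 0.09 ± 0.20, OLIG2 at 0.10 ± 0.12, BCAS1 at 0.12 ± 0.19 and SOX10 at -0.03 ± 0.14. Mature scores ran from -0.865 to 0.314 (median -0.264) in the 5 heavy and from -0.864 to 0.729 (median 0.156) in the 9 very heavy drinkers. The low drinker had a mature score of 0.461, and the 2 binge drinkers had -0.262 and -0.138. The binge drinkers' newly formed scores were -0.975 and -1.02, with only heavy 5 and control 3 lower. No contrast was fitted for the low or the binge category.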

How the data were processed

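RNA from VTA punches of 28 macaques was sequenced as paired-end reads. The authors trimmed reads with Trim Galore 0.6.7, quantified them with Salmon 1.9.0 against Mmul_10 and deposited estimated counts without normalization, listing 1 transcript per gene symbol. How a gene's other transcripts entered is not given in the sources used here. Categories came from the sample labels and cohorts from the study's Source Data. Each library is 1 animal, so replicates are separate animals.

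Estimated counts were rounded, the 1 entry without a symbol was left out, and 13769 of 16885 transcripts were kept, those reaching 5 counts in 3 or more animals. Comparisons used edgeR 4.0.16 (TMM, quasi-likelihood test, Benjamini-Hochberg at 0.05), and the SE is the log2 fold change divided by the square root of F. DESeq2 1.42.0 and limma 3.58.1 (voom) were alternatives. Correlations used log2 CPM with a prior count of 2 (R 4.3.3, Python with numpy and scipy). GC content came from RefSeq transcripts and covers 96.7% of the transcripts tested. The scripts were tested on simulated counts. Named in each comparison are members with an adjusted p under 0.05 or, with none, at least the 3 with the lowest p. MBP, MOG, OPALIN, MYRF, SOX10, OLIG2, BCAS1, PDGFRA and VCAN are given by their levels in drinkers and controls in any case. The members and gene lists were chosen with earlier results of these data known. GC correction, the anchor correlations and the fits without VCAN, without members at 0 or without very heavy 1 were added after the data were seen. Single values of some genes on the marker lists are not reported here.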

Additional observations from a re-analysis of the deposited data

Results flagged for a closer look

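A single animal stood apart from its group by Dixon's ratio (the gap to the nearest animal over the range of the group, on log2 CPM) in 10 of 90 groups of values tested, where chance flags about 1 in 20 of independent groups. These groups share animals and the same animal can be counted more than once, so the 2 rates are not comparable. MOG in heavy 3, at 5.44 CPM, was far below the next animal among the drinkers of cohort 1 (22.7 CPM, ratio 0.637) and among heavy drinkers (28.9 CPM, ratio 0.745). PDGFRA was at 0 in very heavy 1, against 10.8 CPM for the next of the drinkers of cohort 1 (ratio 0.775) and 17.97 CPM for the next very heavy drinker (ratio 0.888). PDGFRA in heavy 1, at 10.8 CPM, was also below the other heavy drinkers (ratio 0.803).

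Very heavy 2 was low for OPALIN (78.6 CPM, ratio 0.514) and MAL (118 CPM, ratio 0.639) among very heavy drinkers. Heavy 5, the 1 heavy drinker of cohort 2, was low for BCAS1 among heavy drinkers (151 CPM, ratio 0.831) and for MAL among the drinkers of cohort 2 (127 CPM, ratio 0.669). Control 2 was high for OPALIN among the controls of cohort 1 (231 CPM, ratio 0.549). No cause of these values was tested.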

How the results depend on the processing

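The log2 fold changes of the 3 members with the lowest p in each of 8 comparisons (24 values) kept their direction under the 191 alternatives run for them, and 186 kept their side of the threshold. Beyond these, GC correction turned 32 of the 192 fold changes of the 24 members with a count in every animal, each at most 0.20 in size before it, among them SOX10 in heavy drinkers and MBP in very heavy drinkers. Members called changed from 0 in cohort 2 against cohort 1 to 2 with DESeq2's Wald test (TF and CSPG4), 1 with limma-voom (TF) and 1 after GC correction (TF), and from 0 in cohort 1's drinkers against controls to 1 with DESeq2 (PLLP, adjusted p = 0.0185). The median pairwise r was 0.268 with members at 0 in some animals left out, and r between mature and precursor scores was -0.083 after GC correction, while it was 0.083 to 0.152 with variance stabilized counts, another prior count, Spearman's rho, cohort means taken out or another library size. Leaving out single heavy drinkers or cohort 2 controls called 0 members each time. Transcripts called over the whole table moved from 132 to 442 (DESeq2), 5 (cohort 1 alone), 45 (without very heavy 1) and 13 (GC correction) in cohort 1, from 6 to 3 (DESeq2 size factors), 92 (DESeq2), 23 (limma-voom) and 20 (GC correction) between cohorts, from 2 to 150 (DESeq2), 0 (GC correction) and 0 to 4 (without 1 control of cohort 2) for the cohorts' difference, and from 0 with DESeq2 to 8 (all drinkers), 53 (cohort 2), 40 (very heavy), 82 (heavy) and 74 (very heavy against heavy). limma-voom called 3 in cohort 2 and 2 for heavy drinkers, and leaving out heavy 4 gave 1. The causes were not tested. No paired analysis was possible because replicate numbers were given in accession order and pair no animals. The 3 controls limit cohort 2, and VCAN, CLDN11, SIRT2, ASPA and TSPAN2 are listed at 0 in 5 to 24 animals.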
